A study of Caenorhabditis elegans with 2 samples.

Results

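Candidate LIN-39 regions that lay inside introns of autosomal protein-coding genes of *Caenorhabditis elegans* were examined, 444 regions of the 30000 in the list that the authors made from both replicates together. They were chosen by their deposited signal and by their position. The pooled list was sorted by signal, the 2000 highest regions were kept, and regions on chromosome X were dropped (no mitochondrial region was among them). A region was then kept where its summit lay inside a protein-coding gene, in no annotated exon, and outside the interval from 1000 bp upstream to 200 bp downstream of any protein-coding gene's 5' end. Of the 2000 highest regions, 464 lay on X and 1536 on autosomes, and the autosomal ones comprised 445 at promoters, 444 in introns, 292 in exons and 355 in distal intergenic sequence. Because signal chose the members, their signals are given as a description. By its deposited name the pooled list holds background as well as peaks, so a member is a candidate region and not an established site.

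The material was strain OP18, grown to the L4 larval stage and taken as whole animals with both sexes together. The strain has the *unc-119(ed3)* III mutation and the inserted transgene wgIs18, from which LIN-39 is made with an eGFP tag. ChIP-seq (immunoprecipitation of chromatin, then sequencing) covered 2 biological replicates, which form 1 group and share the genotype, the transgene and the control alignment used for peak calling. All cells of the animal were pooled, so a region in 1 cell type cannot be told apart from one in many, and the tagged protein came from an inserted transgene. The files hold no read counts, so the depth behind each signal is unknown.

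LIN-39 is a Hox homeodomain protein of the mid-body, and is known to act in vulval precursors, in motor neurons of the ventral cord and in sex myoblast development. Hox proteins recognise short AT-rich sites, often together with PBC-class and MEIS-class homeodomain partners, which in this nematode include CEH-20 and UNC-62. Introns of *C. elegans* genes, the long first introns in particular, are known to hold enhancers and alternative promoters beside non-coding genes.

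The sequences around the summits that carried a GA repeat are shown first, because this repeat was the pattern with the widest gap between the members and the lower-ranked intronic candidates. The 200 bp around 4 of the highest members with it are printed from the + strand of ce11, 5' to 3', with the intron sequence taken from RefSeq. Capitals mark every GAGAGA or its reverse complement TCTCTC.
daf-5, chrII:14040380-14040579: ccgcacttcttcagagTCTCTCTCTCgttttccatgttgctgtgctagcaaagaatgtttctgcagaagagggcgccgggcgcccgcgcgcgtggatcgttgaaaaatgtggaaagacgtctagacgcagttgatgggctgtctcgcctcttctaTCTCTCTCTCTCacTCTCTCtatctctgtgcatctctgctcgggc
Y111B2A.12, chrIII:12612662-12612861: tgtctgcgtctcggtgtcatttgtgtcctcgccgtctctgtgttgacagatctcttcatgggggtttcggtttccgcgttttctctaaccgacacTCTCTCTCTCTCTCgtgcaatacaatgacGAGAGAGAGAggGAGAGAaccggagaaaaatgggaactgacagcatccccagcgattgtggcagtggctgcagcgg
zfp-1, chrIII:8795746-8795945: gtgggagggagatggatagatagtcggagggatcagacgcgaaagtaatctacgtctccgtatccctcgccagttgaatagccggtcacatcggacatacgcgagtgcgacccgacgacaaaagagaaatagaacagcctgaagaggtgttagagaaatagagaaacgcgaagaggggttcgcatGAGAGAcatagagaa
nhr-19, chrII:9603506-9603705: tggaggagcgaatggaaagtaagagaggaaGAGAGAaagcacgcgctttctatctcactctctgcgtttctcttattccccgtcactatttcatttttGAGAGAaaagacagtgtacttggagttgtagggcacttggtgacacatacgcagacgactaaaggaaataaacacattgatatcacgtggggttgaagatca
The summit in *daf-5*, a Ski/Sno-family regulator of the dauer TGF-beta pathway, lay in the 1st of 5 introns, 14446 bp long and 2759 bp from the nearest exon. The summit in Y111B2A.12 lay in intron 4 of 7, 7076 bp long. The summit in *zfp-1*, which encodes a PHD zinc finger protein of the AF10 family, lay in intron 5 of 14, 3573 bp long. The summit in *nhr-19*, a nuclear hormone receptor gene, lay in intron 2 of 10, 4213 bp long. The repeat differed in length and position between these windows, with 8 and 9 overlapping matches in *daf-5* and Y111B2A.12, 1 in *zfp-1* and 2 in *nhr-19*.

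The composite Hox-PBC pattern TGATNNAT is shown in 3 of the highest members that held it, drawn with the same limits on chromosome and window. The sequence is again from the + strand of ce11 in RefSeq, with capitals marking the pattern on either strand.
twk-7, chrIII:8636890-8637089: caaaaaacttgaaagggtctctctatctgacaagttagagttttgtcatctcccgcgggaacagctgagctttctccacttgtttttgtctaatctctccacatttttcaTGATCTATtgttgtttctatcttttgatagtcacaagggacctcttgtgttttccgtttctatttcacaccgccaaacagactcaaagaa
mdt-26, chrII:5663380-5663579: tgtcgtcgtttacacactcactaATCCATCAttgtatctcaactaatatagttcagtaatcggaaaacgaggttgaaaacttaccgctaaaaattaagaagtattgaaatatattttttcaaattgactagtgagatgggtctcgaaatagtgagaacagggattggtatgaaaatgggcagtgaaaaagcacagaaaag
egl-27, chrII:6838326-6838525: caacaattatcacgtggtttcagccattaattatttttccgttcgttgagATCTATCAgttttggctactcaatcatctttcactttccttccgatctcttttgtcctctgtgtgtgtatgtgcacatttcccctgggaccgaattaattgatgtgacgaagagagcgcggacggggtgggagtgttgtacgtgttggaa
The *twk-7* gene encodes a potassium leak channel, *mdt-26* a subunit of the Mediator complex, and *egl-27* an MTA-family chromatin protein. Each window held 1 match, and the *twk-7* window also held a GA repeat. These windows lay in introns of 1203 bp, 406 bp and 2094 bp.

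At the summits of the 444 members GAGAGA was present in 81 regions (18.24%, 95% Wilson interval 14.93 to 22.10), counted on either strand within 100 bp of the summit. In 2 flanks of 100 bp centred 500 bp away on either side, which together have the same length, it was present in 62 members (13.96%, 11.05 to 17.50). It was at the summit alone in 65 members and in the flanks alone in 46, and this difference did not pass the threshold of 0.05 (exact McNemar test, two-sided, p = 0.0871, Benjamini-Hochberg adjusted over 9 patterns 0.261). Flanks can hold exon sequence, and so can windows, of which 319 lay wholly inside the intron. In the 205 members whose flanks both lay in no exon, the shares were 26.34% and 16.59% (exact McNemar test, adjusted p = 0.101). Among the 6899 autosomal intronic candidates of lower rank, 9.12% held the pattern at the summit and 10.93% in the flanks. The difference between members and lower-ranked candidates was not tested. Intervals and p-values here run over regions of 1 pooled list and cover counting error only, since regions are not replicates of the experiment. GAGAGA was already known to be frequent at the thresholded peaks from earlier results of these data, so its share here is not independent support for that.

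None of the 9 patterns passed the adjusted threshold, and 2 had an unadjusted p under 0.05 in the exact McNemar test. The first was ACACAC, at 10.81% of summits against 5.63% of flanks (exact McNemar p = 0.00762, adjusted 0.0686), with 5.97% at lower-ranked summits. The other was TANNTAGT, the letters of the Hox-PBC pattern in reverse order searched as a control of composition, at 10.81% against 6.76% (exact McNemar p = 0.0474, adjusted 0.213), with 8.99% at lower-ranked summits. The control pattern therefore had a smaller p than the Hox-PBC pattern itself. TGATNNAT was at 18.69% of summits against 15.77% of flanks (exact McNemar p = 0.291, adjusted 0.517) and at 15.10% of lower-ranked summits.

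The homeodomain core TAATTA was equally frequent, at 11.71% of summits and 11.71% of flanks, with 11.16% at lower-ranked summits. ATATAT was at 9.91% against 9.46%, with 10.29% at lower-ranked summits. The GATA-class pattern TGATAA, which can overlap TGATNNAT, was at 16.67% against 15.77%, with 17.15% at lower-ranked summits. The MEIS-class pattern TGACAG was at 5.63% against 8.11% and the E box CAGCTG at 2.48% against 3.83%, with 6.42% and 2.91% at lower-ranked summits. Patterns were searched on both strands, and a match is a stretch of letters and not a site. The median GC content was 34% at the members' summits and 35% in their flanks, and 32% and 35% for lower-ranked candidates.

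**Figure D1:**
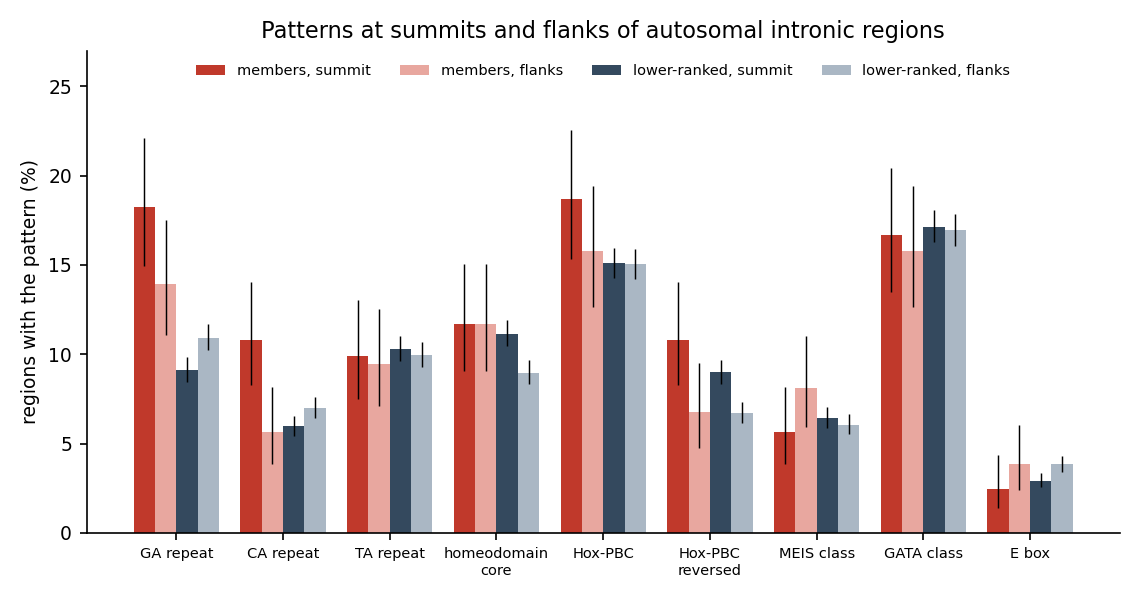
Share of regions (%) holding each of 9 patterns at the summit and in the flanks, for the 444 members and the 6899 lower-ranked autosomal intronic candidates; bars start at 0 and lines are 95% Wilson intervals over regions. The GA repeat stood at 18.24% of members' summits and 9.12% of lower-ranked summits, while the homeodomain core stood at 11.71% and 11.16%.

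By distance, the GA repeat was most frequent in the bins nearest the members' summits. In bins of 100 bp it was present in 12.61% of members at the bin centred 150 bp to the left of the summit, 10.36% at 50 bp to the left, 11.04% at 50 bp to the right and 9.01% at 150 bp to the right. The remaining bins out to 950 bp held it in 3.83% to 9.23% of members, so the highest outer bin exceeded the one at 150 bp to the right. Lower-ranked candidates had it in 4.35% to 5.89% of regions in every bin, with no rise at the summit.

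**Figure D2:**
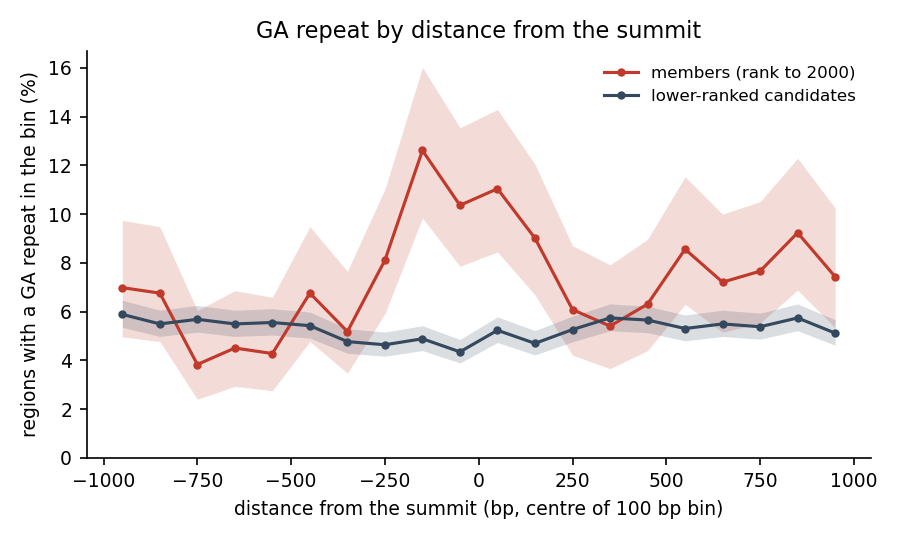
Share of regions (%) with GAGAGA or TCTCTC in each 100 bp bin by distance from the summit (bp, left to right on the + strand), for members and lower-ranked candidates; shading is the 95% Wilson interval over regions. The members' line rises to 12.61% near the summit and the line of lower-ranked candidates stays between 4.35% and 5.89%.

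The GA repeats were short and of both orientations. Of the 81 members with one at the summit, 28 had GAGAGA alone when read along the host gene's strand, 43 had TCTCTC alone and 10 had both. The longest unbroken run had a median of 7 bp and a maximum of 17 bp, and it reached 12 bp in 8 members. These 81 regions lay in 75 genes. Their median GC content was 40% against 32.5% for the 363 members without the repeat, and 7.41% of them against 28.65% had more than 50% of the window soft-masked as repeat in RefSeq. The part of GC content and masking in the distribution of the pattern was not tested.

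The 2 replicates differed in how they ranked the members. Relative signal, the signal divided by the median of its own list, ran from 1.51 to 3.84 in the pooled list with a median of 1.67. In replicate 1 it ran from 0.770 to 3.94 with a median of 1.46 over the 402 members found there, and in replicate 2 from 0.771 to 3.74 with a median of 1.58 over 416. A member was found in a replicate where the summits lay within 200 bp and each was the other's nearest, and 374 members (84.23%) were found in both. Of these 374, replicate 1 was higher in 163 and replicate 2 in 211, and 148 differed by more than 1.5-fold.

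Agreement at the top was limited to a minority of members. Of the 444 members, 43 (9.69%, 7.27 to 12.79) ranked among the 2000 highest of both replicates, against 0.803% of all 30000 pooled regions. Of the rest, 167 did so in replicate 2 alone, 118 in neither and the others in replicate 1 alone. The pooled signal that chose the members contains both replicates, so nothing is read from the gap to the background. Among the other classes of the 2000 highest regions the share was 14.83% at autosomal promoters, 8.56% in exons, 12.39% in distal intergenic sequence and 8.06% in introns of X. The introns of the autosomes thus lay between the exons and the distal intergenic regions, and these differences were not tested.

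**Figure D3:**
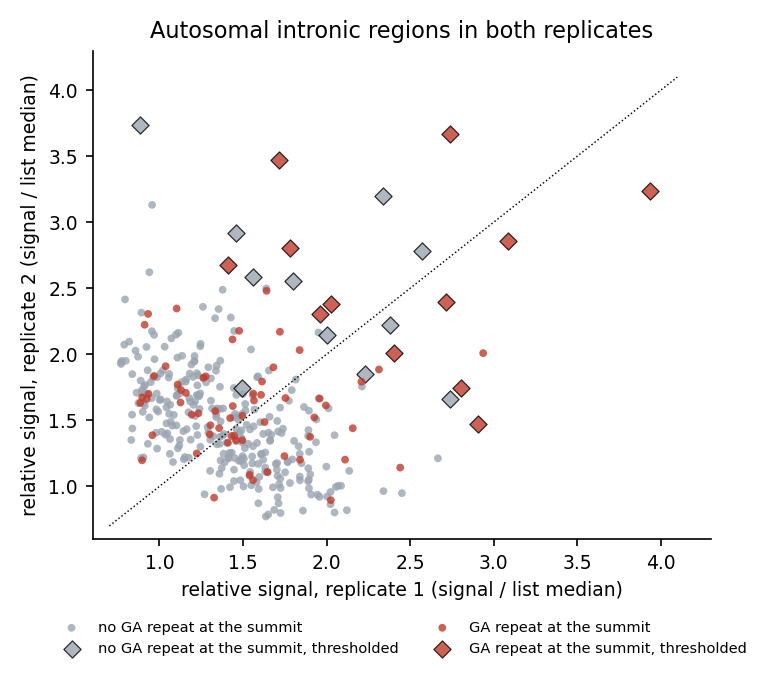
Relative signal (signal divided by the list median) in replicate 1 against replicate 2 for the 374 members found in both; colour marks a GA repeat at the summit, diamonds mark thresholded peaks, and the dotted line marks equality. Most members lie below 2 in both replicates, and *eat-16*, at 3.94 and 3.24, lies farthest to the right.

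The authors' thresholded list held 163 peaks, 0.543% of all pooled regions, and 25 of the 444 members were among them. These 25 were 0.340% of the 7343 autosomal intronic candidates. The thresholded peaks were themselves taken from the top of the same pooled signal, so neither share is read as a result about introns. Of the 25, 17 (68%) ranked among the 2000 highest of both replicates, 3 in replicate 1 alone and 5 in replicate 2 alone. The relative signals of these peaks are given next, as the value in replicate 1 and then in replicate 2.

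The member of highest pooled signal lay in *eat-16*, which encodes a regulator of G protein signalling that opposes Gq, on chromosome I from 9725226 to 9725569. Its relative signal was 3.94 and 3.24, a mean of 3.59 ± 0.49 (SD, n = 2). The summit lay in the last of 9 introns, 4 bp from an exon and within 2 overlapping genes, so its assignment to an intron rests on the annotation. The member in *mnk-1*, a MAP kinase-interacting kinase gene, reached 3.09 and 2.86 (mean 2.97 ± 0.16, SD, n = 2) in a 4572 bp intron, 27 bp from an exon and near the 5' end of another transcript. The member in *daf-5* reached 2.74 and 3.67, and that in *let-526*, the ARID subunit of the SWI/SNF chromatin remodelling complex, reached 2.72 and 2.39. Both replicates placed these 4 regions among their 200 highest.

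Another 13 thresholded members ranked among the 2000 highest of both replicates, 2 of them in *zfp-1*. The member in *pde-4*, a cyclic AMP phosphodiesterase gene, reached 2.80 and 1.75. The member in Y111B2A.12 reached 1.71 and 3.48. In *cdk-5*, a kinase gene of neurons, the values were 2.34 and 3.20, with the summit 24 bp from an exon and inside 2 genes. The higher replicate was thus not the same one across these regions. W10C8.4 had 2.57 and 2.78, *nhr-19* 2.40 and 2.01, and *madd-4*, which encodes a secreted organiser of neuromuscular synapses, 2.23 and 1.85. T26H5.8 had 2.38 and 2.22, F21D12.3 2.03 and 2.38, and Y43F8B.2 2.00 and 2.14. The last 3 differed by less than 1.5-fold between replicates, as did *cdk-5*, W10C8.4, *nhr-19*, *madd-4* and *msa-1*. Y65B4A.2 had 2.74 and 1.66, and *msa-1* 1.80 and 2.56. The summit in T26H5.8 lay 19 bp from an exon.

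The other 8 thresholded members ranked among the 2000 highest of 1 replicate alone. In *ercc-1*, which encodes a subunit of a DNA repair endonuclease, the relative signal was 0.886 in replicate 1, at rank 21281, and 3.74 in replicate 2, at rank 34. The member in *mam-8* had 3.25 in replicate 1 and no matching region in replicate 2, and the member in T13H5.1 had 1.67 and likewise no match. The summit in *mam-8* lay 23 bp from an exon. Of the 23 thresholded members found in both replicates, *ercc-1* had the widest ratio. The values were 2.90 and 1.47 for R02F2.1, 1.46 and 2.92 for *gcy-28*, a receptor guanylate cyclase gene, and 1.56 and 2.58 for *sax-7*, an L1-family adhesion gene. They were 1.41 and 2.68 for *twk-7* and 1.496 and 1.74 for *lgc-51*, a ligand-gated channel gene. At the lower edge of the whole set, the last member lay in *cest-27* at rank 1990 with a pooled relative signal of 1.510 and replicate values of 1.48 and 1.19, and the next candidate, outside the set, lay in *znf-782* at rank 2007 with 1.508 and replicate values of 1.62 and 1.07.

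Members that both replicates ranked high carried the GA repeat at a higher share than those high in 1 replicate. It was at the summit of 22 of the 43 members among the 2000 highest of both replicates (51.16%, with 16.28% in their flanks). It was at 10.34% of those high in replicate 1 alone, 16.77% in replicate 2 alone and 16.10% in neither. These subsets were defined after the values had been seen and are given with no test. The 25 thresholded members held it in 12 cases (48%), and the 26 members high in both replicates but outside the thresholded list also in 12 (46.15%). By pooled rank the share was 23.50% for the members among the 1000 highest regions and 13.22% for the rest. Among lower-ranked candidates it was 11.34% down to rank 5000 and 8.54% in the last bin, which ends at rank 30000.

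A contrast between regions high in both replicates and the others was also present outside introns. Among autosomal regions not high in both replicates, the repeat was at 17.94% of promoter, 12.36% of exon and 19.94% of distal intergenic summits. Among autosomal regions that were high in both replicates, the repeat was at 33.33% of summits and 12.12% of flanks at promoters, 28% and 8% in exons, and 47.73% and 4.55% in distal intergenic sequence. Over all autosomal regions of the 2000 highest it was at 20.22% at promoters, 13.70% in exons and 23.38% in distal intergenic sequence, so the 18.24% of introns lay among them. Within introns, it was at 25.44% of summits in first introns and 15.76% in later ones, with 16.67% and 13.03% in the flanks. It was at 29.23% of the 65 members near another transcript's 5' end against 16.36% of the other 379, with 16.92% and 13.46% in the flanks. None of these differences was tested.

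In the pooled list, members lay in longer introns than lower-ranked candidates. The median intron holding a member was 1440 bp (quartiles 490.8 and 3667, range 42 to 17091), against 862 bp for lower-ranked candidates and 958 bp for a base drawn from all eligible intron sequence. With the list of replicate 1 or 2 alone choosing the regions, the median was 1012 or 1184 bp, closer to that of eligible bases. Introns over 1 kb held 58.56% of members and 44.18% of lower-ranked candidates, while 48.28% of eligible bases lie in them. Introns over 5 kb held 16.67% and 11.33%, against 10.49% of bases. The median distance to the nearest exon was 290.5 bp against 191 bp, and 28.15% of members against 33.72% lay within 100 bp of an exon. Counted once per region, the host gene had a median length of 9582 bp against 7173 bp.

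**Figure D4:**
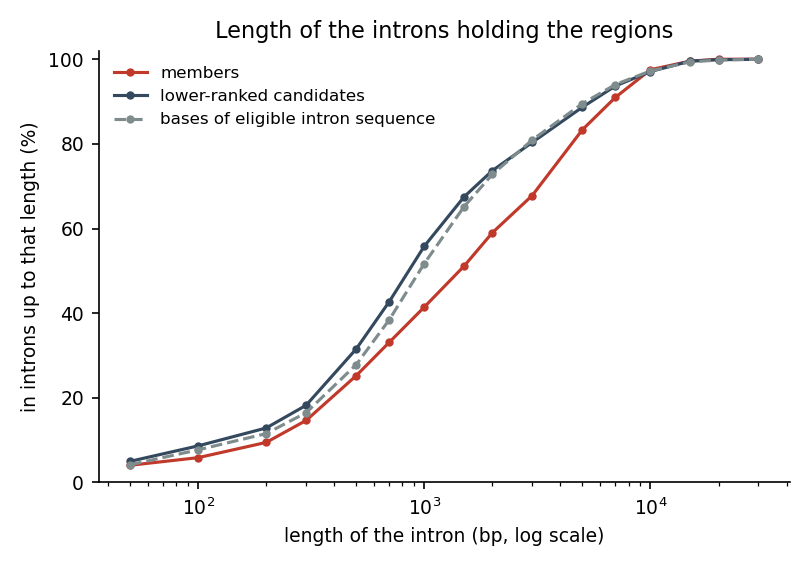
Cumulative share (%) of members, lower-ranked candidates and bases of eligible intron sequence in introns up to each length (bp, log scale). The members' line lies to the right of the others through most of the range, with medians of 1440, 862 and 958 bp.

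First introns held 114 members (25.68%, 21.83 to 29.94), against 21.42% of lower-ranked candidates and 20.68% of eligible bases. Last introns held 9.91% of members and 12.73% of lower-ranked candidates. Near the 5' end of a protein-coding gene's transcript, of the host or of another gene, lay 65 members (14.64% against 11.35%). Repeat content differed more: over 50% of the window was soft-masked in 24.77% of members and 41.37% of lower-ranked candidates. A non-coding gene lay within 200 bp of the summit in 39 members (8.78% against 8.10%). By class, an ncRNA gene was near 5.86% of members against 2.22%, a piRNA gene near 3.15% against 5.18%, a small nuclear RNA gene near 1 member and a tRNA gene near 0 members.

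By chromosome, the members were densest on chromosome I. It held 128 members (28.83%, 24.81 to 33.21), against 21.81% of lower-ranked candidates and 21.89% of eligible sequence, which is 23.47 members per Mb of eligible intron against 17.82 over all autosomes. Chromosome III had 18.32 per Mb, IV 17, V 14.83 and II 14.71. The lower-ranked candidates varied less, from 254.0 per Mb on III to 297.1 on IV. Of the thresholded members, 9 lay on I, 6 on II, 6 on III, 2 on IV and 2 on V. None of these differences was tested.

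**Figure D5:**
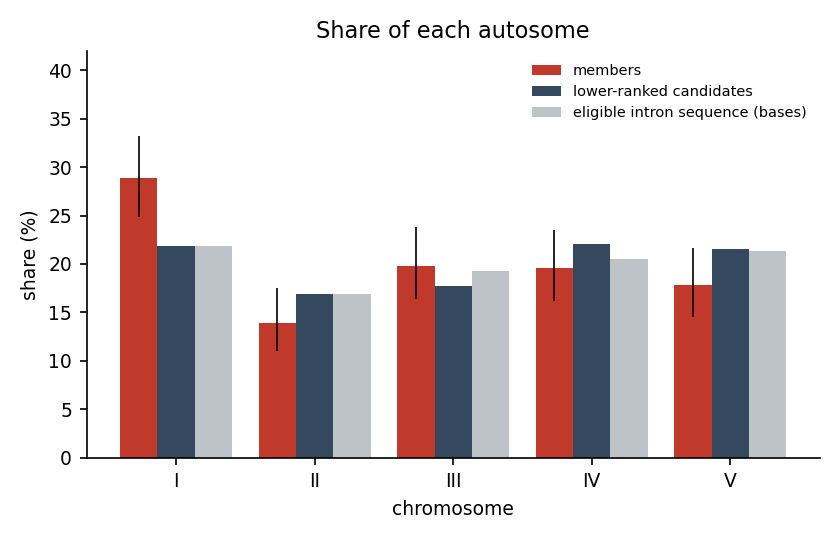
Share (%) of members, lower-ranked candidates and bases of eligible intron sequence on each autosome; bars start at 0 and lines are 95% Wilson intervals for members. Chromosome I holds 28.83% of members and 21.89% of eligible sequence.

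The members lay in 371 genes, which is 9.04% of the 4105 genes hosting any autosomal intronic candidate. A single member was found in 313 of these genes, and 58 held 2 or more. The gene with most members was *zfp-1*, with 5 of its 6 candidates in 3 introns. Its relative signals were 1.78 and 2.81, 1.96 and 2.30, 1.57 and 1.65, 1.75 and 1.67, and 1.37 and 1.14, and 4 of its 5 members held a GA repeat at the summit. All 5 were found in both replicates, and the first alone differed by more than 1.5-fold. Next came *afd-1*, an afadin gene, and *lim-9*, which encodes a LIM-domain protein of muscle attachments, with 4 members each. These genes are 49607 bp and 38919 bp long and held 29 and 21 candidates. In *afd-1*, 1 member had 74.71% of its window in 31-mers that recur in the genome. Whether copies elsewhere supplied reads to this region was not tested.

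A set of 8 genes held 3 members each, between 10278 bp and 38461 bp long. They were *gcy-28*, *rbf-1* (rabphilin), T01D3.1, *ida-1* (a dense-core vesicle protein), *kin-1* (the catalytic subunit of protein kinase A), *nrx-1* (neurexin), *unc-13* (a synaptic vesicle priming protein) and *cle-1* (a type XVIII collagen). In *cle-1* and *ida-1* the 3 members shared 1 intron. The part of gene length in the number of members per gene was not tested.

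Gene lists are given as the share of genes hosting a member among those hosting any autosomal intronic candidate, beside the background of 9.04%, with no test. The lists picked by hand do not hold every gene of their kind, so each share describes the list and not the class. Of a list of chromatin regulators and transcription factors, 11 of 40 (27.50%) hosted a member, the highest in *let-526*, *egl-27* at 1.64 and 2.50, and *lsy-22* at 1.44 and 2.11. The deacetylase gene *hda-6* was the next, and the others, *skn-1*, *hlh-30*, *hif-1*, *daf-16*, *crh-1*, *ahr-1* and *blmp-1*, encode DNA-binding transcription factors. Of synaptic and axonal neuron genes, 10 of 44 did (22.73%), among them *ric-4*, a SNAP-25 homologue, at 0.932 and 2.31, *rab-3* at 1.48 and 2.18, and *cla-1*, an active zone protein gene, at 1.35 and 2.34. In these 3 the higher value was in replicate 2. Of a list of signalling genes, which does not hold the kinase genes *mnk-1*, *cdk-5* and *mpk-1* described elsewhere, 10 of 54 did (18.52%), the highest in *pde-4*, the adenylyl cyclase gene *acy-3* at 2.31 and 1.88, and *unc-108*, a Rab GTPase gene, at 1.28 and 1.83. Of axon guidance and adhesion genes, 9 of 53 did (16.98%), among them *sax-7* and *dsh-1* (Dishevelled), the latter at 1.45 and 1.55. The part of gene length in these shares was not tested.

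Lists of genes tied to LIN-39 itself were near the background. Of homeobox genes, 3 of 29 (10.34%) hosted a member, and of vulval and mesoblast targets and partners 4 of 36 (11.11%). The homeobox hosts were *unc-62*, the MEIS-class partner gene, with 2 members, *vab-7*, an even-skipped homologue, at 1.20 and 1.62, and *ceh-100* at 0.914 and 1.768. In *unc-62* the member on chromosome V from 4499067 to 4499410 lay in the 1st intron, held a GA repeat and had 1.84 and 2.03, while the one from 4506742 to 4507085 lay in intron 8 and had 1.33 and 2.27. Both lay near the 5' end of another transcript. The hosts from the list of vulval and mesoblast targets and partners were *madd-4*, *mpk-1*, *sem-2* and *fozi-1*. In *mpk-1*, the ERK kinase gene of vulval induction, the member lay in an 8247 bp first intron, held a GA repeat and had 1.72 and 2.17. In *sem-2*, a SoxC gene of the sex myoblast lineage, it held a GA repeat and had 1.61 and 1.79, and in *fozi-1*, a mesoblast zinc finger gene, it had 0.770 and 1.94.

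Of a list of ion channel and channel-associated genes 5 of 49 hosted a member (10.20%), the highest in *twk-7*, *unc-79*, an accessory gene, at 1.90 and 1.57, and the potassium channel gene *shw-1* at 1.21 and 1.64. Channel genes outside that list also hosted members, such as *twk-43* at 0.956 and 3.13, named after its values were seen. Of muscle structure genes 3 of 27 did (11.11%), in *lim-9*, in *unc-82* at 2.22 in replicate 2 alone, and in *zyx-1* at 1.12 and 1.70. Gene families taken by name lay on both sides of the background, several on 1 or 2 genes. Nuclear hormone receptor genes hosted a member in 2 of 74 (2.70%), *nhr-19* and *nhr-230*, the latter at 1.94 and 1.51. Serpentine receptor genes did in 10 of 220 (4.55%), the highest in *sru-7* at 3.20 in replicate 1 with no match in replicate 2, *srw-118* at 2.05 and 1.39, and *srt-73* at 0.954 and 1.67. The first pair were higher in replicate 1 and the last in replicate 2. The summits in *sru-7*, *srw-118* and *srt-73* lay 70 bp, 4 bp and 3 bp from an exon. F-box genes did in 1 of 21 (4.76%), *fbxa-9* at 1.60 and 1.07, and C-type lectin genes in 2 of 28 (7.14%), *clec-169* at 1.18 and 1.64 and *clec-264* at 1.49 and 1.37. Acetylcholine receptor and ligand-gated channel genes did in 2 of 34 (5.88%), *lgc-51* and *lgc-38*, the latter at 0.921 and 1.70, and Wnt pathway genes in 1 of 15 (6.67%), *dsh-1*. Collagen genes did in 1 of 9 (11.11%), *col-152* at 1.39 and 1.18. Genes named *kin-* or *ptp-* did in 2 of 10 (20%), *kin-4* at 2.73 in replicate 2 alone and *kin-1*, both serine/threonine kinase genes, and the single ribosomal protein gene with a candidate in 0.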

How the data were processed

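Per the deposited descriptions, the authors made each replicate's list from its alignment and a shared control alignment, the pooled list from both alignments, and the thresholded list by an irreproducible discovery rate cutoff. Which aligner, caller and threshold they ran is not given in the sources used here. Sizes of the deposited signal differ between lists, and the signal was therefore ranked or divided by the median of its list. The deposited q column reached below 0 in the pooled list, was treated as a score and was not tested. Library size range is 150 to 350 bp, per the labels. Depth is unknown from these lists, and the ce10 lists were not used here.

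Regions of ce11 were annotated with Ensembl release 115, and sequence and soft-masking came from RefSeq WBcel235; no region ran past a chromosome end. Introns were numbered and measured between exons merged over all transcripts of the host gene. Where protein-coding genes overlapped at the summit, the shortest was taken as the host. Hosts with several genes, exon distance, GC content and recurring 31-mers were recorded per member. Patterns were searched within 100 bp of each summit and in 2 flanks, and compared by two-sided exact McNemar tests with Benjamini-Hochberg adjustment over 9 patterns (threshold 0.05). Intervals are 95% Wilson intervals. Of 767 symbols in the fixed lists, 750 matched; with gene families there were 17 lists. The serpentine receptor list was narrowed to receptor families after its members were seen. The members, lists and patterns were chosen with earlier results of these data known. Named genes are the hosts of the 20 highest members, of every thresholded member and of the most members. Up to 3 highest genes of each list and the edges of rank 2000 are also named. Outside chromosome I, *mdt-26* is among the highest members with TGATNNAT. Others, such as *fozi-1*, were named after their values were seen. A host gene that the rule covers is not reported here. Alternatives varied the number of regions, replicates, promoter rule, summit distance, window, flanks and host choice. Functions were tested on simulated data. Versions were scipy 1.17.1, pandas 2.3.3, numpy 2.4.6, matplotlib 3.10.9 and Python 3.11.15.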

Additional observations from a re-analysis of the deposited data

How the results depend on the processing

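Taking the 1000 or 4000 highest pooled regions gave 217 or 893 members and 199 or 721 host genes. Both counts move with the number of regions taken. The median intron was then 1694 or 1134 bp, and 18.89% or 4.93% ranked among the 2000 highest of both replicates. What lay behind the changes in median and share was not tested. Defining promoters by any transcript's 5' end gave a median intron of 1310 bp. Leaving out a replicate, so that the list of the other chose the regions, gave median introns of 1012 to 1184 bp. Both were below the 1440 bp of the pooled list and above the 958 bp of eligible bases. The share high in both replicates then has no value. The GAGAGA share was above the flanks under every alternative run, and its adjusted p stayed above 0.05 in all but 1, from 0.101 to 0.651. The exception, a search within 200 bp of the summit chosen after seeing the data, gave 31.31% against 24.10% (exact McNemar test, adjusted p = 0.0495). That search brought 3 patterns past the threshold (the GA repeat, the CA repeat and the Hox-PBC pattern). Taking 4000 regions brought 1 past it and flanks 1000 bp away brought 1, in both cases the reversed control of the Hox-PBC pattern; the cause was not tested. The share in first introns stayed between 22.73% and 27.46%. Depth is unknown, both replicates share a control, and the signal of the pooled list chose the members, so no strength of binding is read from it.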
